A study of Mus musculus with 12 samples.

Results

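The MHC class II genes examined here were 8 rows of a count table of 12339 genes, picked by symbol: H2-Aa, H2-Ab1, H2-Ea, H2-Eb1, Cd74, Ciita, H2-DMa and H2-DMb1. All 8 were listed. RNA was sequenced from mouse peritoneal macrophages elicited with thioglycolate, a sterile irritant, and collected by lavage. Each of 4 groups had 3 libraries: wild type (WT) on chow, WT on a high-fat Western diet (HFD), meKO on chow and meKO on HFD. From the title, which concerns protein kinase C epsilon in myeloid cells, meKO is read as a myeloid knockout of its gene Prkce; the labels name neither the recombinase line, its promoter nor the strain. Mice of every group, controls included, were injected at 8 weeks of age with AAV8PCSK9, a virus that takes the LDL receptor from hepatocytes, and cells were collected 4 weeks after virus and diet began. No group without the virus was analysed here. Nothing in the labels states that the libraries of a group came from separate cultures, though each carries its own library number. The p-values therefore measure the spread between these libraries.

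MHC class II molecules are pairs of an alpha and a beta chain that carry peptides from engulfed protein to the cell surface, where CD4+ T cells read them. In mice H2-Aa and H2-Ab1 encode the I-A pair, and H2-Ea and H2-Eb1 the I-E pair. Cd74 encodes the invariant chain, which holds new class II molecules and steers them to endosomes, and H2-DMa with H2-DMb1 encodes the H2-DM pair that swaps the last piece of the invariant chain for a peptide. Ciita encodes the coactivator on which transcription of all these genes depends, and in macrophages it is best known as a target of interferon gamma. CIITA does not bind DNA itself but docks on factors bound to an X box and a Y box a short way before each start.

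The promoters are shown because these boxes are what the class II genes share in sequence. RefSeq promoter windows of build GRCm38.p6, each of 300 bases (250 before and 50 after a start), were found for 4 of the 8 genes: H2-Aa, H2-Eb1, H2-DMb1 and H2-DMa. On either strand, the letters TGATTGG of the Y box were in 7.82% of 32851 windows. The X box core GNAAC was in 84.8%, so it sets few promoters apart. GNAAC followed by TGATTGG on the same strand, with at most 60 bases between them, was in 1.54% of windows. H2-Aa, H2-Eb1 and H2-DMb1 all had it. The letters run 5′ to 3′ on each gene's own strand, with GNAAC and TGATTGG in capitals.
H2-DMb1, chr17:34153067-34153159, plus strand: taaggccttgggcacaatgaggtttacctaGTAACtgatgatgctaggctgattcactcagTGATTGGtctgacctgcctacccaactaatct
H2-Aa, chr17:34287842-34287934, minus strand: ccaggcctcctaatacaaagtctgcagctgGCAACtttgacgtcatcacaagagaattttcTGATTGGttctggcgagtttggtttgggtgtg
H2-Eb1, chr17:34305746-34305837, plus strand: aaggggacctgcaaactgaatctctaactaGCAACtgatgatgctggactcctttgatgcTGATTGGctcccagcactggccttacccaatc
Where a window held several such pairs, the pair with first letters nearest to 30 bases apart was taken. In the pairs taken, the first letters lay 31 bases apart in H2-DMb1 and H2-Aa and 30 in H2-Eb1. This choice favours spacings near 30, so whether the genes share a spacing was not tested. H2-Aa also held TGACGTCA, the letters of a cyclic AMP response element, which were in 1.79% of windows. They follow closely on GCAAC and overlap neither run of capitals. Among class II genes outside the 8, the same pair, chosen in the same way, stood 31 bases apart in H2-Oa, 28 in H2-Ob and 30 in H2-Eb2. The window of H2-DMb2 held both sets of letters but not as this pair. Neither of the 2 windows of H2-DMa held TGATTGG. A match describes letters and shows no binding.

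The libraries held 25844958 to 37282772 counts, and the 8 genes took between 0.0874% of them (WT HFD replicate 2) and 0.235% (WT chow replicate 1). Prkce, the targeted gene, stood at 2.01 to 4.44 CPM (read counts scaled to library size with TMM factors) in the 6 WT libraries. In the 6 meKO libraries it stood at 0.950 to 1.78 CPM, without overlap. It rests on 25 to 151 counts a library and did not pass an adjusted p under 0.05 over all genes on either diet. Its log2 fold change between genotypes was -1.47 on chow and -0.80 on HFD (edgeR adjusted p = 0.0794 and 0.989). Groups lay apart, lower in meKO, for 8.28% of all genes on chow and 4.85% on HFD. All 10 macrophage markers were listed, with summed levels of 12178 to 64853 CPM. Several libraries stood apart from the rest of their group. In meKO chow replicate 2 Lyz2, a lysozyme gene of macrophages, was at 69.3 CPM, against 20306 and 21309 CPM in meKO chow replicates 1 and 3. In WT chow replicates 1 and 2 counts rose with transcript length (Spearman's rho across genes of 0.54 and 0.58), against -0.40 to 0.14 in the other libraries. Calls lost without these libraries are given beside the result.

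Per kilobase of transcript and averaged over the 12 libraries, H2-Aa was the most abundant of the genes at 461 CPM per kb. Cd74 followed at 389 and H2-Ab1 at 174. H2-Eb1 averaged 65.2 CPM per kb, H2-DMb1 29.9, H2-DMa 24.0, H2-Ea 5.10 and Ciita 0.911. The ranges over libraries of H2-Aa (315 to 677) and Cd74 (228 to 678) overlapped, Cd74 also overlapped H2-Ab1 (104 to 262), and H2-DMb1 (18.7 to 50.1) overlapped H2-DMa (14.0 to 39.5), so the spread does not settle these orders. H2-Eb1 has no fixed place: it ran from 3.94 to 232 CPM per kb, across the ranges of H2-Ab1, H2-DMb1, H2-DMa and H2-Ea (0 to 11.5), and 6 of its libraries, at 3.94 to 6.85, lay below every H2-DM value. H2-Aa, H2-Ab1, H2-Ea, H2-Eb1, H2-DMa and H2-DMb1 lie in the H2 complex on chromosome 17, Cd74 on chromosome 18 and Ciita on chromosome 16.

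**Figure D1:**
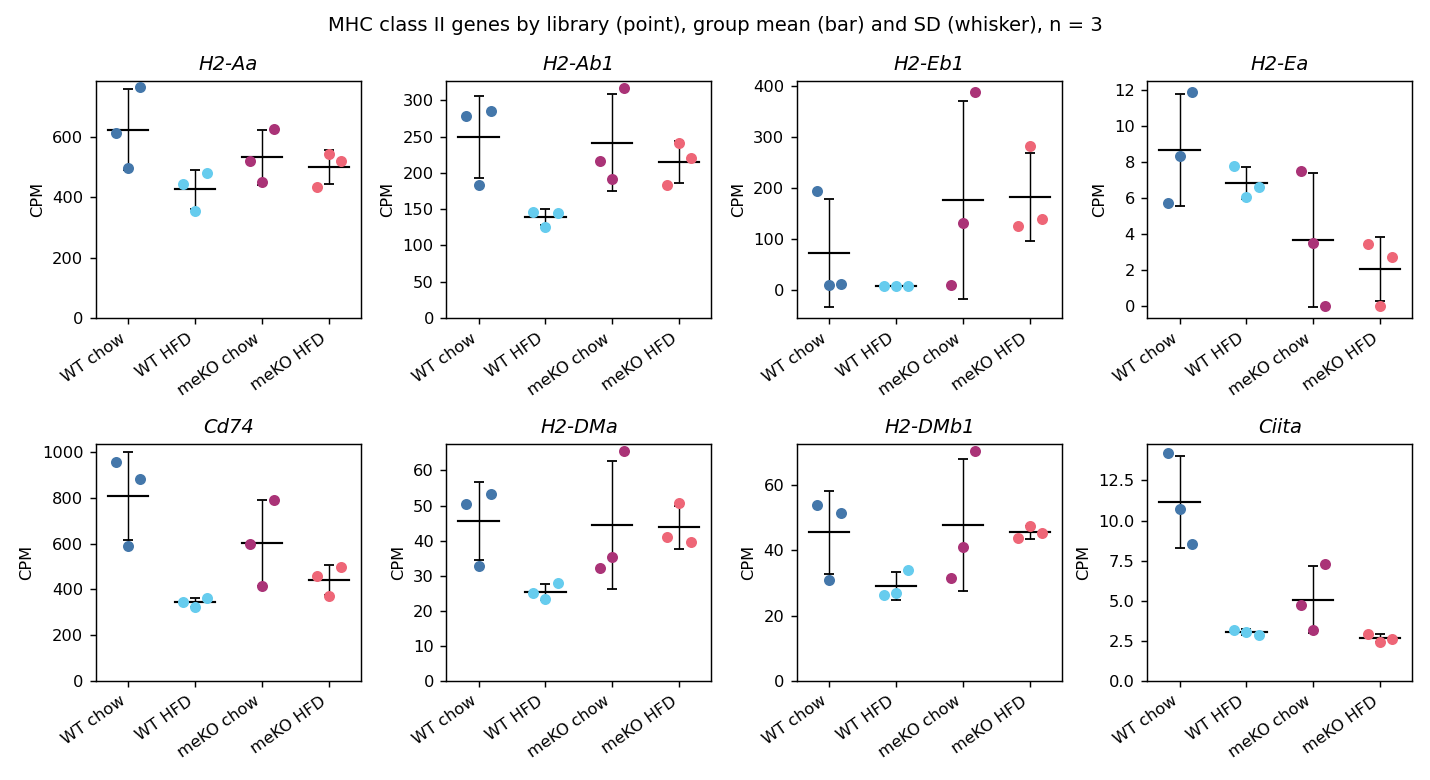
Expression of the 8 genes in CPM (vertical axes, scaled separately) in the 4 groups; each point is a library, the bar is the mean and the whisker the SD of 3 libraries. The WT HFD libraries of Ciita and Cd74 (at most 3.20 and 362 CPM) lie below all WT chow libraries, and H2-Eb1 splits into libraries at or under 11.4 CPM and at or above 125 CPM.

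The WT libraries held less class II RNA on HFD than on chow, and the coactivator showed the largest fold among the genes past the threshold. Of the 8 genes, 5 fell, Ciita, Cd74, H2-Ab1, H2-DMa and H2-Aa, and none rose, at an adjusted p under 0.05 over all genes. In the same comparison 21.3% of all genes were called, 11.8% of all genes as lower. The median log2 fold change was -0.84 over the 8 genes and -0.03 over all genes. The WT chow and WT HFD libraries did not overlap for 6 of the 8 genes, all lower on HFD, against 39.3% of all genes, 19.9% as lower. Markers of B cells and dendritic cells, which carry class II, were lower too: the B cell markers summed to 220 to 280 CPM in WT chow and 127 to 155 in WT HFD, and the dendritic cell markers to 228 to 252 and 136 to 157 CPM. A few genes made up most of each sum, as given below. In these bulk libraries fewer cells of a type and less RNA per cell cannot be told apart. The part of B cells and dendritic cells in the fall was not tested.

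In the chow libraries of WT, replicates 1 to 3, Ciita was measured at 14.2, 10.7 and 8.56 CPM, and in the HFD libraries at 3.20, 3.03 and 2.83 CPM. Every WT chow library was above every WT HFD library. The mean fell from 11.1 ± 2.85 to 3.02 ± 0.188 CPM (SD, n = 3), which is -1.88 ± 0.27 on the log2 scale (± SE here and below; edgeR adjusted p = 0.00308). Because 2 of the WT chow libraries were tilted toward long transcripts and the Ciita transcript measures 6007 bases, the value with a length and GC correction is given too: it was -1.46 (edgeR adjusted p = 0.00614).

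Cd74, the invariant chain, was measured at 956, 588 and 882 CPM in WT chow and, on HFD, at 346, 321 and 362 CPM. Both groups were again apart, with WT chow replicate 2 the lowest of its group. Its log2 fold change was -1.24 ± 0.22 (edgeR adjusted p = 0.00803).

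The I-A chains fell less. H2-Ab1, the beta chain, stood at 279, 184 and 285 CPM in WT chow and at 146, 126 and 145 CPM in WT HFD. H2-Aa, the alpha chain, stood at 612, 496 and 764 CPM in WT chow and at 444, 355 and 479 CPM in WT HFD. In both genes the lowest chow library was WT chow replicate 2, and it still lay above all WT HFD libraries. The log2 fold change was -0.84 ± 0.20 for H2-Ab1 (edgeR adjusted p = 0.0176) and -0.55 ± 0.17 for H2-Aa (edgeR adjusted p = 0.0386).

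In the H2-DM chains WT chow replicate 2 was again the lowest chow library. H2-DMa was measured at 50.5, 32.8 and 53.3 CPM in WT chow and at 24.95, 23.3 and 27.9 CPM in WT HFD, a log2 fold change of -0.84 ± 0.24 (edgeR adjusted p = 0.0302). H2-DMb1 was measured at 54.0, 30.9 and 51.5 CPM in WT chow and at 26.3, 27.0 and 34.1 CPM in WT HFD. WT chow replicate 2 lay inside the WT HFD range there, and the log2 fold change of -0.64 ± 0.26 did not pass (edgeR adjusted p = 0.0819).

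The I-E chains did not pass either. H2-Eb1 had a log2 fold change of -3.40 ± 1.51 (edgeR adjusted p = 0.132), which rests on WT chow replicate 1: without it the value was -0.57 (edgeR adjusted p = 0.787). H2-Ea had -0.34 ± 1.08 (edgeR adjusted p = 0.837). Single libraries also decided several of the calls. Ciita and Cd74 passed in all 21 alternatives, H2-Ab1 in 18, H2-DMa in 16 and H2-Aa in 12. Without WT chow replicate 1, H2-Ab1 had -0.74 (edgeR adjusted p = 0.0915). H2-Aa had -0.68 with WT chow replicate 2 left out (edgeR adjusted p = 0.0513). With WT chow replicate 1, WT HFD replicate 1 or WT HFD replicate 3 left out, Ciita and Cd74 alone passed. With the third library of WT chow or the second of WT HFD left out, H2-Ab1 passed beside them.

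**Figure D2:**
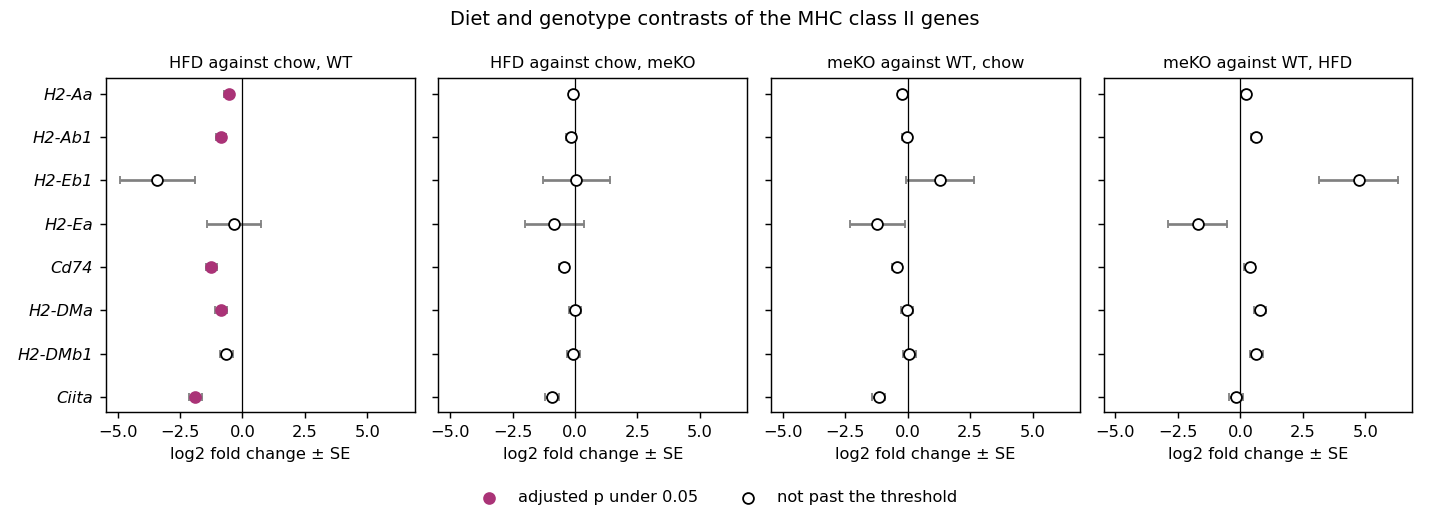
Log2 fold change with its SE (horizontal axis, shared by the 4 panels) for each gene in the diet and genotype comparisons; filled points passed an edgeR adjusted p under 0.05 over all genes, open points did not. The filled points are Ciita, Cd74, H2-Ab1, H2-DMa and H2-Aa in the comparison of diets in WT.

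In the meKO libraries none of the 8 genes passed between diets, in a comparison where 0.105% of all genes were called. With edgeR, 1 of the 8 had an unadjusted p under 0.05, Ciita, and DESeq2 and limma-voom called 0. Ciita was measured at 4.71, 3.18 and 7.29 CPM in meKO chow and at 2.95, 2.44 and 2.58 CPM in meKO HFD. These libraries did not overlap, as was so for 19.7% of all genes (9.38% lower on HFD), and the log2 fold change was -0.92 ± 0.27 (edgeR adjusted p = 0.188). Cd74 stood at 599.7, 417 and 791 CPM in meKO chow and at 459.9, 370.5 and 498 CPM in meKO HFD, with a log2 fold change of -0.44 ± 0.21 (edgeR adjusted p = 0.326). For Cd74 the groups overlapped.

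The I-A chains also overlapped between diets in meKO. H2-Ab1 stood at 217, 191 and 317 CPM on chow and at 184, 241 and 221 CPM on HFD. H2-Aa stood at 519, 449 and 627 CPM on chow and at 435, 544 and 520 CPM on HFD. Their log2 fold changes were -0.17 ± 0.19 and -0.09 ± 0.17 (edgeR adjusted p = 0.681 and 0.816). The H2-DM chains lay closer still to 0, at -0.02 for H2-DMa and -0.07 for H2-DMb1, and the median over the 8 genes was -0.13.

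The difference between the diet effects of both genotypes was tested as an interaction. It was positive, that is the HFD value less negative in meKO than in WT, for 7 of the 8 genes, with a median of 0.73 on the log2 scale against 0.02 over all genes. None of the 8 passed (0.0162% of all genes did), 4 had an unadjusted p under 0.05 with edgeR (H2-Ab1, Cd74, H2-DMa and Ciita), and DESeq2 and limma-voom called 0. The interaction was 0.97 ± 0.37 for Ciita and 0.79 ± 0.30 for Cd74 (edgeR adjusted p = 0.773 for both). A diet effect that differs between genotypes was thus not shown for these genes, though 5 passed in WT and 0 in meKO. Averaged over genotypes, the diet difference passed for 3 genes, all lower on HFD, against 30.2% of all genes called, 15.3% as lower. These were Ciita at -1.40 ± 0.19, Cd74 at -0.84 ± 0.15 and H2-Ab1 at -0.50 ± 0.14 (edgeR adjusted p = 0.00134, 0.00467 and 0.0182). H2-Ab1 lost this call without WT chow replicate 1 (-0.46, edgeR adjusted p = 0.0512).

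Between genotypes on chow none of the 8 genes passed (0.081% of all genes did). With edgeR 1 gene, Ciita, had an unadjusted p under 0.05, DESeq2 called it (adjusted p = 0.00375), and limma-voom called 0. All 3 meKO chow libraries of Ciita, at 3.18 to 7.29 CPM, lay below the WT chow libraries at 8.56 to 14.2 CPM, a log2 fold change of -1.15 ± 0.26 (edgeR adjusted p = 0.0794). It was the 1 gene of the 8 whose groups did not overlap, against 17.1% of all genes, 8.28% lower in meKO. The call depends on the fit: it passed without WT chow replicate 3 (-1.29, edgeR adjusted p = 0.00746) and missed with WT chow replicate 1 left out (-0.92, 0.345), with meKO chow replicate 2 left out (-0.89, 0.289) and with the length and GC correction (-0.82, 0.133). Over its 21 alternatives the adjusted p ran from 0.00193 to 0.345, and 3 passed. H2-Eb1 had a log2 fold change of 1.29 ± 1.36 (edgeR adjusted p = 0.599), which was 4.12 without WT chow replicate 1 and -0.04 without meKO chow replicate 3.

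On HFD, where the WT libraries are those of the diet comparison above, none of the 8 genes passed between genotypes, with 0.081% of all genes called. With edgeR 4 had an unadjusted p under 0.05 (H2-Ab1, H2-Eb1, H2-DMa and H2-DMb1), DESeq2 called 1, H2-Eb1 (adjusted p = 0.0375), and limma-voom called 0. The groups did not overlap for 6 of the 8 genes, against 10.3% of all genes (5.45% higher in meKO and 4.85% lower). H2-Ab1, H2-Eb1, Cd74, H2-DMa and H2-DMb1 were higher in every meKO HFD library than in any WT HFD library, and H2-Ea was lower in every one. Without H2-Ea and H2-Eb1 the count was 4 of 6. All WT HFD libraries lay on the low side of the H2-Eb1 steps given below and all meKO HFD libraries on the high side. On HFD, genotype and these steps therefore cannot be told apart. The median log2 fold change was 0.50 over the 8 genes and 0.02 over all genes.

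H2-DMa stood at 41.1, 50.7 and 39.5 CPM in meKO HFD, above the 23.3 to 27.9 CPM of WT HFD, with a log2 fold change of 0.78 ± 0.24 (edgeR adjusted p = 0.651). H2-DMb1, at 43.7, 47.6 and 45.2 CPM, had 0.64 ± 0.26 (edgeR adjusted p = 0.996). H2-Ab1 had 0.63 ± 0.20 (edgeR adjusted p = 0.656). These 3 genes thus lay apart by library and yet missed the threshold over all genes. Cd74, at 370.5 CPM in its lowest meKO HFD library against 362 in the highest of WT HFD, was barely apart, and H2-Aa and Ciita overlapped. With the fit limited to the 6 HFD libraries, H2-Eb1 and H2-DMa passed (edgeR adjusted p = 2.41e-04 and 0.0467).

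Averaged over diets, 0 of the 8 genes passed between genotypes, against 0.17% of all genes; 3 had an unadjusted p under 0.05 with edgeR (H2-Eb1, H2-DMa and Ciita), DESeq2 called 2 (H2-Eb1 and Ciita) and limma-voom 0.

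H2-Eb1, the I-E beta chain, varied in steps that cut across the groups. WT chow replicates 1 to 3 had 194, 8.88 and 11.4 CPM of H2-Eb1, and the WT HFD libraries had 6.80, 6.58 and 6.98 CPM. In meKO chow it stood at 9.14, 130.3 and 388 CPM, and in meKO HFD at 125, 281 and 138 CPM. So 6 libraries lay at or under 11.4 CPM and the other 6 at or above 125 CPM, an 11-fold gap with no library inside it. All WT HFD libraries were on the low side and all meKO HFD libraries on the high side, while each chow group held both. Of 12331 genes with no library at 0, 10 had a gap of at least 10-fold.

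H2-Ea, the I-E alpha chain, ran the other way. The RefSeq annotation calls it a transcribed pseudogene, since the alleles of some mouse strains, the reference among them, make no working I-E alpha chain. H2-Ea stood at 5.69, 8.33 and 11.9 CPM in WT chow and at 7.77, 6.02 and 6.62 CPM in WT HFD. In meKO chow it stood at 7.47, 3.47 and 0 CPM, and in meKO HFD at 3.41, 0 and 2.70 CPM. A count of 0 allows up to 3 counts, or 0.104 CPM in meKO chow replicate 3 and 0.114 CPM in meKO HFD replicate 2, for counting error only. These 2 libraries held the highest H2-Eb1 levels of all.

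Set against genes of the same libraries, the steps had 3 levels. Per kb, the ratio of H2-Eb1 to H2-Ab1 was 0.0291 to 0.0379 in WT chow replicates 2 and 3, all of WT HFD and meKO chow replicate 1. It was 0.452 to 0.505 in WT chow replicate 1, meKO chow replicate 2 and meKO HFD replicates 1 and 3. It was 0.888 in meKO chow replicate 3 and 0.848 in meKO HFD replicate 2. H2-Aa over H2-Ab1 ran only from 2.12 to 3.55 over all 12 libraries and showed no gap. It was 2.56 to 3.55 in the first of these sets and 2.12 to 2.54 in the other libraries, whose levels overlapped.

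H2-DMb2, a near copy of H2-DMb1 and not among the 8, showed the same levels in reverse. Its ratio per kb to H2-DMb1 was 0.503 to 0.611 in the first set of libraries, 0.235 to 0.273 in the second, and 0.0731 in meKO chow replicate 3 and 0.0513 in meKO HFD replicate 2. H2-DMb2 itself stood at 14.9, 16.7 and 27.4 CPM in WT chow and at 13.4, 15.4 and 18.1 CPM in WT HFD. It stood at 19.6, 10.01 and 5.22 CPM in meKO chow and at 10.4, 2.48 and 12.1 CPM in meKO HFD. Class II chains are polymorphic between mouse strains and have near copies, and the labels give neither strain nor H2 haplotype for any library. Reads of alleles unlike the reference could be missed or counted for a copy, so levels of H2-Eb1, H2-Ea, H2-DMb1 and H2-DMb2 are uncertain. H2-Aa and H2-Ab1 are class II chains too, and the ratio between them was higher in the first set of libraries, though without a gap. Their levels therefore carry the same doubt. What set the steps was not tested.

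**Figure D3:**
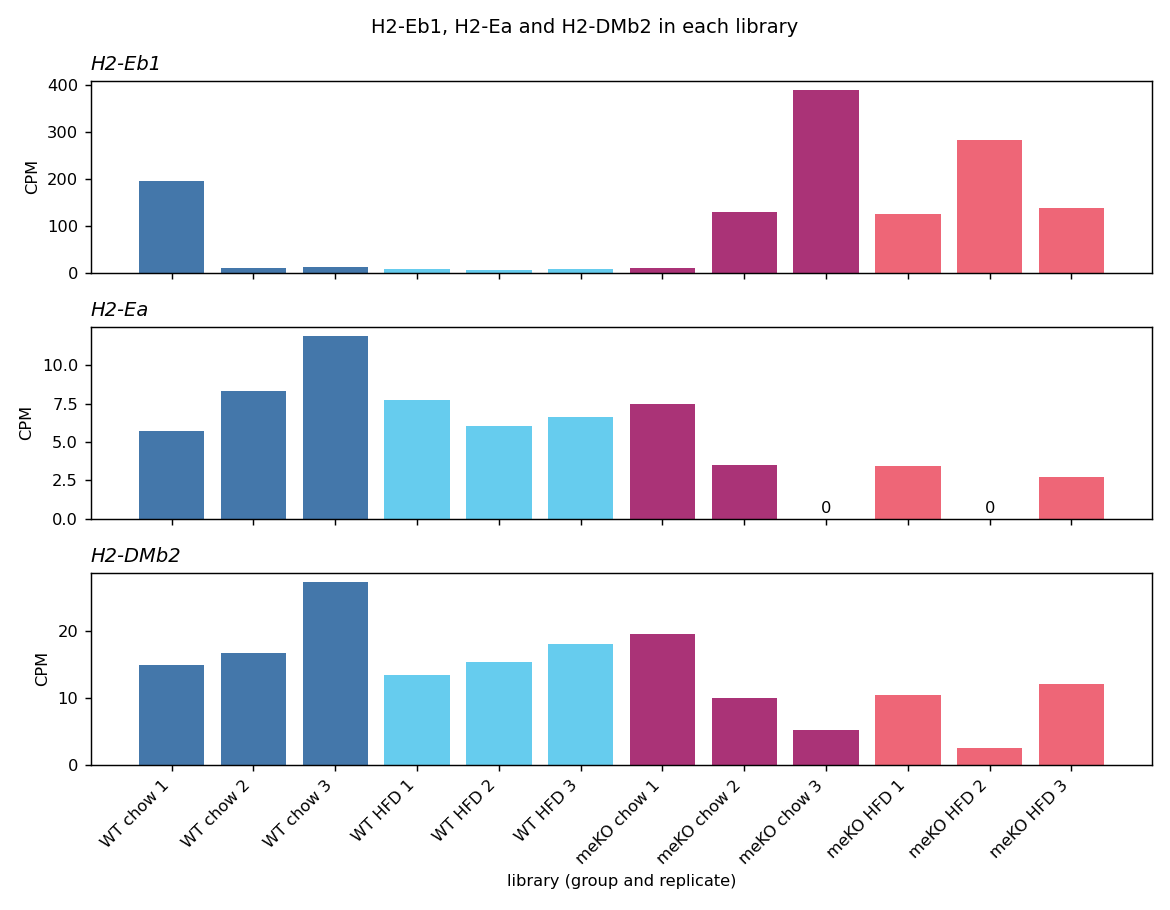
CPM (vertical axes) of H2-Eb1, H2-Ea and H2-DMb2 in each of the 12 libraries (horizontal axis), coloured by group; a printed 0 marks a library without counts. H2-Eb1 is highest in meKO chow replicate 3 and meKO HFD replicate 2, where H2-Ea is at 0 and H2-DMb2 at its lowest.

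The genes whose log2 CPM was most like that of each pattern over the 12 libraries were looked up, as a description: the libraries fall into the 4 groups and share their depth and preparation. For H2-Ea these were H2-T26, H2-Q2, Gm8801, H2-Bl and Cchcr1, with Pearson's r of 0.961 to 0.988, and all 5 lie on chromosome 17, which holds 5.28% of the genes in the table. For the mean of H2-Aa, H2-Ab1, H2-Eb1 and Cd74 the nearest 10 were Svip, AA388235, 1700071M16Rik, Trip4, H2-T24, Hddc3, Papss2, H2-T23, Daxx and Zfp870, with r of 0.867 to 0.918. Of these 10, 6 lie on chromosome 17. Further patterns were chosen after their values were seen. For H2-Eb1 alone the nearest 5 were AA388235, H2-T23, Rps18, Hddc3 and H2-T22 (r of 0.966 to 0.995), of which 4 lie on chromosome 17. For the mean of H2-Aa, H2-Ab1 and Cd74 without H2-Eb1, 0 of the nearest 10 did, and Mgl2, a lectin of macrophages and dendritic cells, came first with r = 0.934.

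Many neighbours of H2-Eb1 did not share its step. From 300 kb before H2-Oa to 300 kb after H2-Ea, 43 genes were listed. Their r with H2-Eb1 over the 12 libraries ran from -0.84 for Rps28 to 0.99 for AA388235. Close below AA388235 were Rps18 at 0.97, Agpat1 at 0.93, H2-K2 at 0.88 and Daxx at 0.85. Rps28 ran in reverse, lowest in meKO chow replicate 3 and meKO HFD replicate 2 (4.87 and 8.89 CPM). Psmb9 at -0.02, Rxrb at 0.00 and Tap2 at 0.21 lay between the ends. These genes were named after their values were seen. H2-DMb1 had 0.81, H2-DMa 0.75, H2-Ab1 0.64, H2-Aa 0.30 and H2-Ea -0.70.

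**Figure D4:**
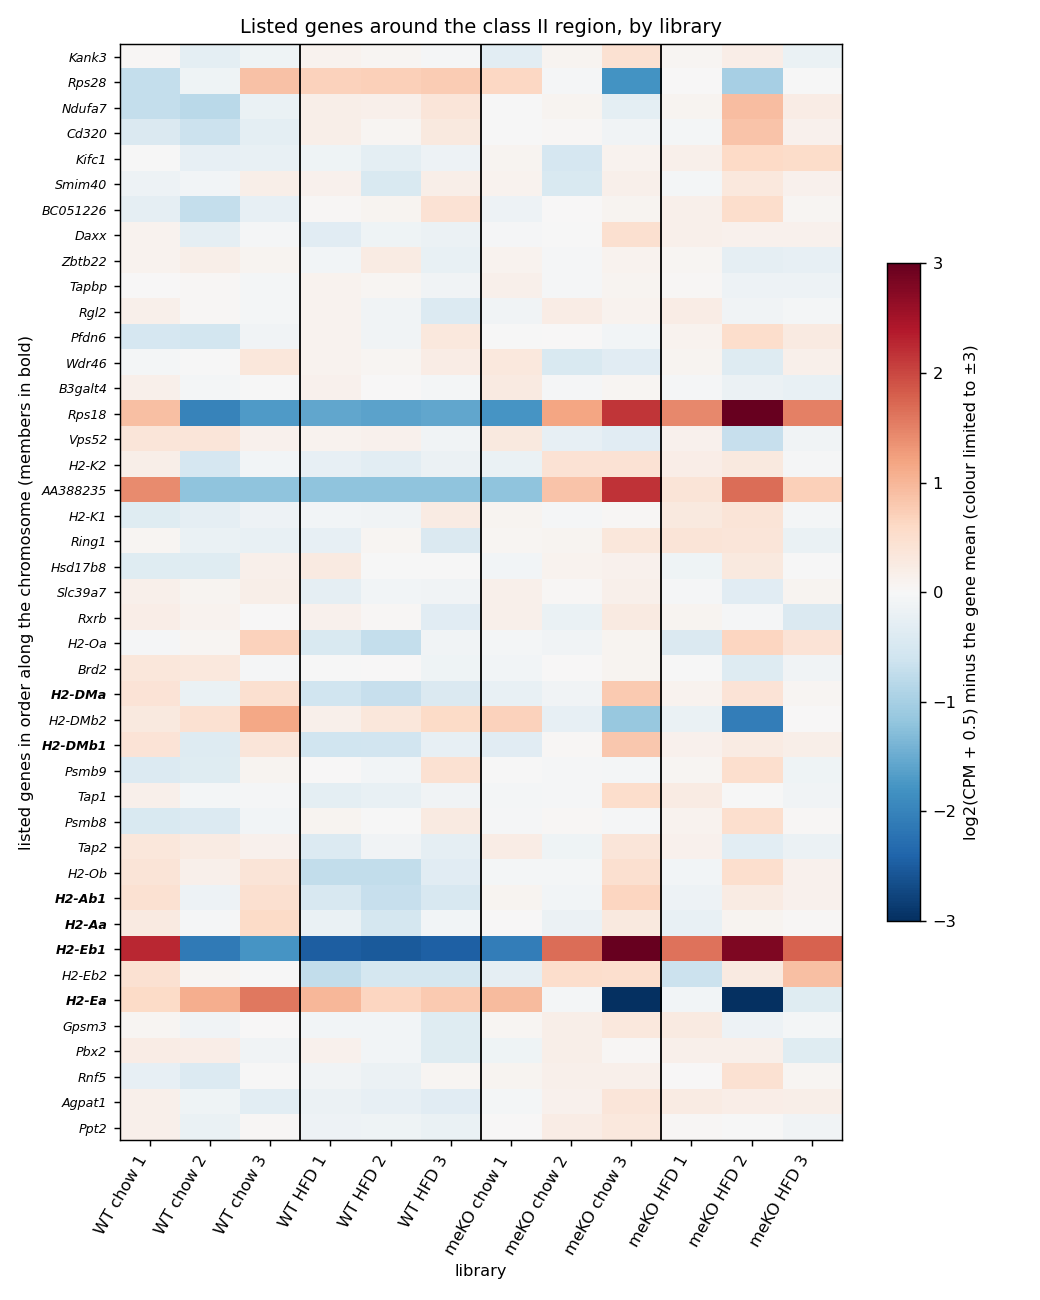
Listed genes around the class II cluster in order along the chromosome (rows, members in bold) in the 12 libraries (columns); colour is log2(CPM + 0.5) minus the mean of the gene, limited to 3 either way. H2-Eb1 and AA388235 (r = 0.99) change colour together, while neighbours such as Psmb9 (r = -0.02) do not follow them.

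Other genes of the pathway were read from lists. Of the 10 listed genes outside the 8 for other class II chains, peptide loading and editing, 1 fell and 1 rose between diets in WT, near the share of all genes called (21.3%). H2-Ob, the beta chain of H2-DO, which restrains H2-DM, fell by 1.0 ± 0.21 on the log2 scale (edgeR adjusted p = 0.0132). Ctsl, a lysosomal protease that trims the invariant chain, rose by 0.40 ± 0.12 (edgeR adjusted p = 0.0372). Ctsl was also the 1 listed pathway gene called between genotypes averaged over diets, higher in meKO by 0.49 ± 0.09 (edgeR adjusted p = 0.0413). H2-Oa, the alpha chain of H2-DO, had -0.81 ± 0.32 and H2-Eb2 had -1.37 ± 0.54 between diets in WT (edgeR adjusted p = 0.0819 and 0.0776). H2-DMb2 had -0.33 ± 0.55 there. The median over the 10 genes was 0.11.

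Of the 7 genes besides Ciita for the factors on the X and Y boxes, 2 fell and none rose in WT on HFD, a share near the 21.3% of all genes called (11.8% lower). Their median was -0.04, against -0.03 over all genes. Rfx5, which binds the X box, fell by 0.66 ± 0.19 (edgeR adjusted p = 0.0312), and Nfya, a subunit of the factor on the Y box, by 0.37 ± 0.11 (edgeR adjusted p = 0.0337). Nfyc, another subunit, was higher on HFD averaged over genotypes, by 0.29 ± 0.08 (edgeR adjusted p = 0.0199).

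Of 18 genes for signals that act on Ciita, 17 were listed, and in WT on HFD 4 fell and 1 rose, beside 21.3% of all genes called (11.8% lower). The list median was -0.27. Tgfbr2, a receptor for TGF-beta, which restrains class II, fell by 0.68 (edgeR adjusted p = 0.0131). The interferon regulatory factors Irf8 and Irf2 fell by 0.63 and 0.71 (edgeR adjusted p = 0.0203 and 0.0217), and Stat6, which carries interleukin-4 signals, by 0.56 (edgeR adjusted p = 0.0318). Spi1, which encodes the myeloid factor PU.1, rose by 0.36 (edgeR adjusted p = 0.0318). On the interferon gamma path to Ciita, Ifngr1, Ifngr2, Jak1, Jak2 and Irf1 did not pass, and Socs1 was not listed.

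Of 7 genes for turnover of class II protein and costimulation, 1 fell, Marchf8, and 1 rose, Cd40, both named after their values were seen. This was between diets in WT, where 21.3% of all genes were called (11.8% lower), and so are the neighbours that follow. Of 15 neighbours on chromosome 17, 12 were listed; Tap2, a peptide transporter of the class I path, fell by 0.51 (edgeR adjusted p = 0.0321) and Psmb8, an immunoproteasome subunit, rose by 0.42 (edgeR adjusted p = 0.0465). In meKO 0 genes of these 5 lists passed between diets, where 0.105% of all genes were called.

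B cells and dendritic cells carry much class II, and a lavage can hold both. Markers of both fell with diet in WT beside the class II genes. Of 13 B cell markers 11 were listed (Pax5 and Ebf1, which define the lineage, were not), and their summed level was 220 to 280 CPM in WT chow, 127 to 155 in WT HFD, 155 to 280 in meKO chow and 142 to 235 in meKO HFD. Of the 11, 6 fell in WT on HFD, among them Fcer2a, Bank1, Fcmr, Cd22 and Ighm. In that comparison 21.3% of all genes were called, 11.8% as lower. Cd22 (50.8 to 120 CPM over the libraries) and Ighm (35.6 to 104 CPM) made up most of the B cell sum. All 12 dendritic cell markers were listed, with a summed level of 228 to 252 CPM in WT chow, 136 to 157 in WT HFD, 153 to 219 in meKO chow and 134 to 165 in meKO HFD. Itgax (40.2 to 109 CPM over the libraries) and Clec10a (48.0 to 102 CPM) made up most of this sum. Of the 12, 5 fell in WT on HFD: Dpp4, Clec10a, Flt3, Itgax and Kmo. The rest did not pass. Among them Batf3, Ccr7 and Siglech had log2 fold changes of 0.09, -0.04 and -0.04. Clec9a, Cd209a, Zbtb46 and Xcr1 had -0.76, -0.85, -0.90 and -0.90. No listed marker of either cell type was at 0 in any library.

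Between genotypes and between diets in meKO, 0 B cell or dendritic cell markers passed, in comparisons where at most 0.17% of all genes were called. Between diets in meKO the median log2 fold change was -0.77 over the B cell and -0.27 over the dendritic cell markers. In WT these medians were -0.98 and -0.82. Averaged over genotypes, 9 of 11 B cell and 5 of 12 dendritic cell markers were lower on HFD, against 30.2% of all genes called (15.3% lower). T and NK cell markers, 10 of 11 listed, summed to 587 to 612 CPM in WT chow, 563 to 609 in WT HFD, 539 to 683 in meKO chow and 618 to 761 in meKO HFD, and 0 of them passed in WT. Il7r alone, at 506 to 720 CPM over the libraries, made up most of this sum, and Cd3e was at 0.359 to 1.69 CPM. The sum therefore follows Il7r and says little about T and NK cells. Ifng, which encodes interferon gamma, was not listed.

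Other macrophage and granulocyte lists were read in the same way between diets in WT, where 21.3% of all genes were called (11.8% lower). Lists this short with a share called near that one say little about their cells. Of 10 macrophage markers, 2 rose (Lgals3 and Cd14) and 1 fell (Mertk). Resident large peritoneal macrophage markers, 8 of 8 listed and summing to 50.8 to 132 CPM over the libraries, had 2 that fell, F5 and Alox15. Of the small peritoneal macrophage and monocyte markers 6 of 7 were listed (312 to 582 CPM), and Ccr2 fell. Of the neutrophil markers 6 of 7 were listed (99.4 to 171 CPM), with 2 that rose (S100a8 and S100a9) and 3 that fell (Mmp9, Csf3r and Retnlg). Of the eosinophil markers 2 of 5 were listed (13.2 to 52.9 CPM), and 0 passed. All 6 mast cell markers were listed (57.0 to 353 CPM), and Kit fell. Between genotypes, Lyz2 stood at 69.3 to 21309 CPM in the 6 meKO libraries and at 30482 to 53835 CPM in the 6 WT libraries, and it makes up most of the macrophage sum outside meKO chow replicate 2. The other 9 macrophage markers summed to 11588 to 13478 CPM in meKO and 10120 to 11744 CPM in WT, and these ranges overlap. S100a9 was the 1 marker of these lists that passed on either diet, higher in meKO on both, with 0.081% of all genes called on each. Averaged over diets, 3 of the 6 listed neutrophil markers passed, all higher in meKO and S100a9 and Retnlg among them, against 0.17% of all genes. The part of these cells in the class II levels was not tested.

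**Figure D5:**
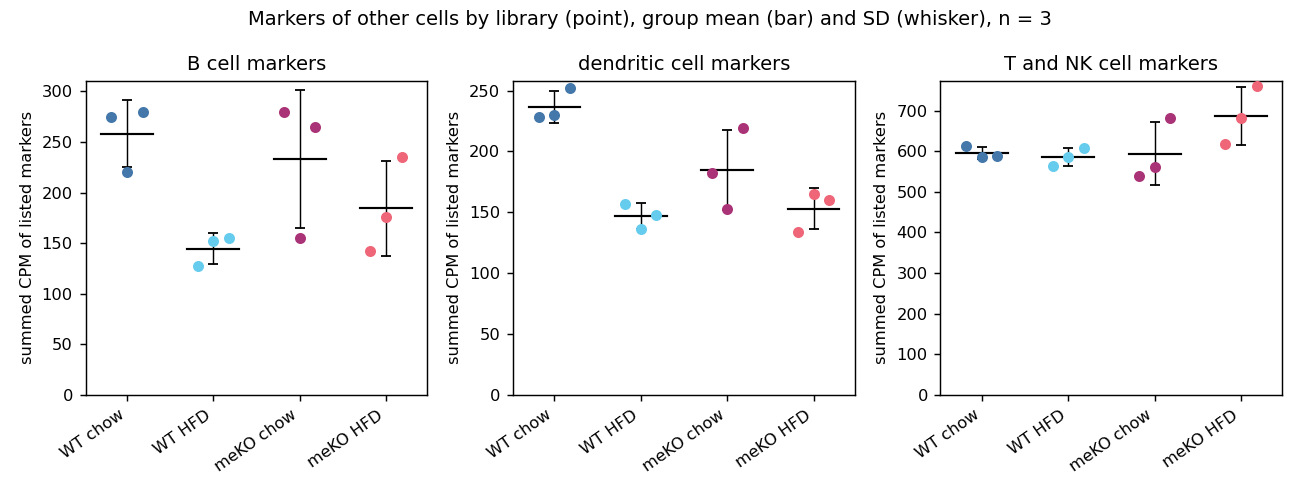
Summed CPM of the listed markers of B cells, dendritic cells and T and NK cells (vertical axes) in the 4 groups; points are libraries, bars means and whiskers the SD of 3 libraries. B cell and dendritic cell markers of all WT HFD libraries (at most 155 and 157 CPM) lie below those of all WT chow libraries (at least 220 and 228 CPM). Most of the B cell sum is Cd22 and Ighm, most of the dendritic cell sum Itgax and Clec10a, and most of the T and NK cell sum Il7r.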

How the data were processed

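The authors deposited whole-number counts per gene for 12 libraries of mouse macrophage RNA (Trizol, Illumina TruSeq, per the labels' protocols). The submitters' processing notes name mm10 and DESeq2 without saying what for; the aligner, the counting tool and its strand setting are not given in the sources used here. Reads of overlapping genes (Gm20513 on the strand opposite H2-Eb1, Dexi opposite Ciita, Brd2 opposite H2-DMa, Mir5107 within Cd74) and of near copies (H2-DMb1 and H2-DMb2, H2-Eb1 and H2-Eb2) can therefore not be told apart.

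Groups came from the sample titles, and replicate numbers follow sample order and pair nothing. edgeR 4.0.16 (R 4.3.3) was used for the main test: TMM scaling, filterByExpr, robust dispersions and the two-sided quasi-likelihood F test with 4 group means over 12 libraries, Benjamini-Hochberg adjusted over 12339 genes, called under 0.05. All groups share one estimate of the spread. SE is the size of the log2 fold change divided by the square root of F. An exact permutation test of 1 gene cannot reach below p = 0.1 with 3 libraries a group, so none was run. The code was tested on simulated data. Alternatives were each library left out, only the groups compared, RLE factors, raw library totals, no filter, a filter of 10 counts in each library, DESeq2 1.42.0, limma-voom (limma 3.58.1) without and with quality weights, and a length and GC correction (mgcv 1.9.3). The correction used GENCODE transcripts, which gave a length and GC value for 93.5% of the genes; levels per kb use the principal transcript.

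The members and lists were chosen with earlier results of these data known. The 8 genes and Prkce were always named, with the non-member class II chains, up to 12 listed pathway genes that passed in a diet or genotype comparison (smallest p first), and the genes of most like pattern; others are said to be named after their values were seen, or make up a marker list. A few listed genes are withheld for evaluation and not reported here by name.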

Additional observations from a re-analysis of the deposited data

How the results depend on the processing

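No paired analysis was possible because the labels give the groups no shared replicate numbers. Between diets in WT the settings that left out no single library called 4 to 6 of the 8 genes, and leaving out a library gave 2 to 6. Between genotypes on chow, DESeq2 and quality weights called 1 (Ciita) and leaving out a library gave 0 to 1. On HFD, DESeq2 called 1 and the fit of only the groups compared 2. Averaged over diets, DESeq2 and quality weights called 2 (H2-Eb1 and Ciita), and leaving out a library gave 0 to 1, the 1 being Ciita without WT chow replicate 3. The diet difference averaged over genotypes gave 5 with library totals and with DESeq2, and 2 to 5 with a library left out, the 5 being without WT chow replicate 2. Between diets in meKO and for the interaction, 0 were called under every setting. The causes of these changes were not tested, except that fewer libraries enter a fit that leaves some out.

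Signs turned only where a fold change was near 0 or its SE wide. H2-DMb1 between genotypes on chow was -0.00 with library totals and -0.08 with the length and GC correction. Between diets in meKO, H2-Eb1 was -0.01 with library totals and -0.06 with the correction, H2-DMa was 0.05 with limma-voom, and H2-DMb1 was 0.02 with it and 0.03 with quality weights. With quality weights H2-Ea was 0.02 between diets in WT, 0.60 in meKO, 0.58 for the interaction and 0.31 averaged. With a library left out, the genotype difference on chow ran from -0.29 to 0.11 for H2-Ab1, -0.04 to 4.12 for H2-Eb1, -0.43 to 0.16 for H2-DMa and -0.32 to 0.30 for H2-DMb1. The diet difference in meKO ran from -0.21 to 0.05 for H2-Aa, -0.32 to 0.08 for H2-Ab1, -0.52 to 1.38 for H2-Eb1, -1.46 to 0.20 for H2-Ea, -0.21 to 0.37 for H2-DMa and -0.30 to 0.32 for H2-DMb1, and the interaction of H2-Ea from -1.12 to 0.54. H2-Ea has no value at 10 counts in every library.

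Counts over all genes moved far more: 96 to 6411 between diets in WT, 1 to 398 in meKO, 2 to 4047 between genotypes on chow, 3 to 128 on HFD, 1 to 295 for the interaction, 8 to 3835 for genotype averaged over diets and 1957 to 6298 for diet averaged. The share called, against which the 8 genes are read, moves with them. Ciita (64 to 502 counts a library) and H2-Ea (0 to 361) rest on the fewest counts of the 8.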
